A study of Mus musculus with 12 samples.

Results

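The p53 target genes are 36 genes that the transcription factor p53 is known to switch on, together with p53 itself and its close regulators. They were named as a list, chosen with earlier results of these data known. Counts of members that changed therefore describe the list and do not test it. Each gene was read on an expression array through a probe set that the platform annotation gives to that gene alone. Where a gene had several, the brightest over both groups together was to be taken, but each member measured had only 1, so no measured value entered the choice of probe set. Of the 36 genes, 33 were measured this way, out of 22180 genes in all. Trp53, Bax and Gdf15 were not analysed here. Liver RNA came from male C57BL6/J mice aged 8 to 10 weeks injected in the tail vein with an Ad5 adenovirus. The control group carried Ad-GFP, a virus for green fluorescent protein (GFP 1 to 6, n = 6), and the other group Ad-hApoF, a virus for human apolipoprotein F (hApoF 7 to 12, n = 6). All mice were killed 4 days after injection, at 3 pm and after a 6 h fast, so that both groups share virus, strain, sex and fasting. Neither the viral dose nor the promoter of the transgenes is given in the sources used here, and uninjected livers were not analysed here. The comparison asks which liver transcripts differ when human ApoF, a secreted protein of lipoproteins, is overexpressed. The mouse Apof probe set was not designed for the human transgene, so no targeted gene checks the labels. The labels do not state that each array came from its own mouse, and the p-values then measure only the spread between these samples.

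p53 is held at a low level in unstressed cells because Mdm2, a ubiquitin ligase, marks it for destruction. After DNA damage, replication stress or other insults it accumulates and induces genes that halt division, repair DNA or kill the cell, and it also induces Mdm2, which closes a feedback loop. The halt works mainly through Cdkn1a, which encodes p21, an inhibitor of cyclin-dependent kinases. Through p21 and the DREAM repressor complex, p53 activity lowers the transcripts of many genes of mitosis. In the adult liver most hepatocytes are at rest, and p21 is known to rise in hepatocytes under damage or during regeneration.

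p53 recognises pairs of a short consensus decamer, and promoter windows were searched for it because most of the members that changed moved in the same direction. Windows run from 250 bases before to 50 bases after an annotated start and were taken from RefSeq on GRCm38.p6. They were at hand for 26 of the 33 measured genes. The decamer reads the same on both strands. It lay in a window of 9 of these 26 genes (34.6%), against 9.56% of 27018 genes with a window. Of the 9, Cdkn1a, Ccng1, Mdm2, Aen, Polk, Ppm1d, Ei24 and Gtse1 fell in livers given hApoF and Sesn1 rose. Of the 17 without it in a window, 7 fell and 10 did not pass. Tnfrsf10b and Zmat3, which also fell, had no window to search. Some genes had more than 1 window. By window the decamer was in 10 of 41 (24.4%), against 8.36% of all 32841. The overlapping windows of Aen hold the same decamer, which is counted in each. A pair of decamers, with at most 2 mismatches and 0 to 13 bases between them, was in 5 of the 41 windows (12.2%), against 4.09% of all. These were windows of Cdkn1a, Ccng1, Gtse1, Sesn1 and Trp73. Trp73 did not pass, and its windows held no exact decamer. A match describes letters only and was not tested as a binding site. The stretches of 5 genes that fell by over 0.5 on the log2 scale, and that of Sesn1, are printed 5′ to 3′ with decamers in capitals.
Cdkn1a: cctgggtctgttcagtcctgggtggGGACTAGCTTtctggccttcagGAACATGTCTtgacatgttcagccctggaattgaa
Ccng1: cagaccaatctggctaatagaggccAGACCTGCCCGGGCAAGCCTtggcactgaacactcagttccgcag
Mdm2: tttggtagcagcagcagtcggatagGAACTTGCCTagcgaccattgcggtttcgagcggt
Aen: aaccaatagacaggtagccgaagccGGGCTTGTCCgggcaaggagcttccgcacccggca
Polk: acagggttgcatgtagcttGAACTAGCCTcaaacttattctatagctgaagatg
Sesn1: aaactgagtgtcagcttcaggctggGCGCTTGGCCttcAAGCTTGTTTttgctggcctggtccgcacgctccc
The Cdkn1a stretch lies at chr17:29090881-29090962 on the plus strand, at bases -98 to -17 from the upstream of its 2 annotated starts, and holds 2 decamers with 0 mismatches. The Ccng1 stretch, whose pair has 1 mismatch, lies at chr11:40755437-40755506 on the minus strand, and the Mdm2 stretch at chr10:117710910-117710969 on the minus strand. The Aen stretch lies at chr7:78895912-78895971 on the plus strand and that of Polk at chr13:96519384-96519437 on the minus strand. The stretch of Aen precedes its downstream annotated start and runs past the upstream one. The Sesn1 stretch, whose pair has 2 mismatches, lies at chr10:41887228-41887300 on the plus strand. The Polk and Sesn1 stretches each precede the downstream of 2 annotated starts, and the window of the upstream start held no decamer. The cell cycle homology hexamer TTTGAA, searched on both strands, marks many mitotic promoters. It was in 17 of 25 windows (68%) of the genes repressed through the DREAM complex, in 3 of 41 windows (7.32%) of the p53 targets and in 17.9% of all 32841 windows. The windows of Gtse1 and Psrc1, p53 targets with roles in mitosis, did not hold it. Some windows of the DREAM list lacked it too, so its absence does not place a gene outside that class.

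Values are log2 levels after RMA, a procedure that puts all arrays on a common scale, and a difference of 1 is a doubling. Differences are hApoF minus GFP, with the standard error (SE) of a limma fit on all 22180 genes. A gene rose or fell where the Benjamini-Hochberg adjusted p of that fit was under 0.05. Array medians lay between 4.93 and 5.03, and the number of arrays limits the precision. The mean level of 10 hepatocyte marker genes was 11.6 to 11.7 in GFP arrays and 11.7 to 11.8 in hApoF arrays. Endothelial markers rose in 3 of 10 cases (mean level 7.80 to 8.24 in GFP, 8.12 to 8.46 in hApoF), Kupffer cell and macrophage markers in 2 of 12 (6.81 to 7.90 and 7.27 to 8.04) and stellate cell markers in 2 of 10 (6.95 to 7.30 and 7.14 to 7.48). Of 7 neutrophil markers 1 rose, and of 5 cholangiocyte, 12 T and NK cell and 5 B cell markers 0 passed. In limma, 3, 4 and 1 of these had an unadjusted p under 0.05. Most of these marker counts changed with 1 array. On omission of GFP 1, 2, 3 or 6 or of hApoF 7, 8 or 12 the stellate count was 0, and it was 1 on that of hApoF 9 or 10. The Kupffer count was 1 on omission of GFP 1, 2 or 3 or of hApoF 7, 9, 11 or 12, and the neutrophil count 0 in 9 of the 12 omissions (all but GFP 4, hApoF 9 and hApoF 12). Omission of GFP 4 gave 6 endothelial and 3 Kupffer markers. It also gave 1 riser each among hepatocyte and B cell markers, as did omission of GFP 5 among hepatocyte and cholangiocyte markers and of hApoF 10 among cholangiocyte markers. Omission of hApoF 7 or hApoF 11 gave 1 faller among the latter. The part of these cells in the results was not tested. In bulk liver, fewer cells of a type and less RNA per cell cannot be told apart.

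Of the 33 measured p53 targets, 17 fell (51.5%), 1 rose and 15 did not pass, in livers given hApoF. Over all genes 4.8% fell and 2.11% rose, 6.91% in either direction. Most members are brighter than the median gene. When only genes at or above the median gene were tested, 2107 genes passed, against 1533 in the fit on all genes. The share that passed among brighter genes was thus larger than 6.91%. In that fit 17 of 29 members fell and 2 rose. The median difference of the 33 was -0.35, against 0.03 over all genes, and 27 of the 33 were below 0, where 42.3% of all genes were. In 14 members every hApoF array lay below every GFP array (3.49% of all genes), and in 1 member every hApoF array lay above (1.49%). The counts were again 17 and 1 without GFP 4 and hApoF 12, the arrays with the lowest cell cycle levels of their groups, and 14 to 18 fell when each array was left out in turn. Without GFP 4, Trp73 passed as well (0.36, adjusted p = 0.040) and the count of risers was 2.

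**Figure D1:**
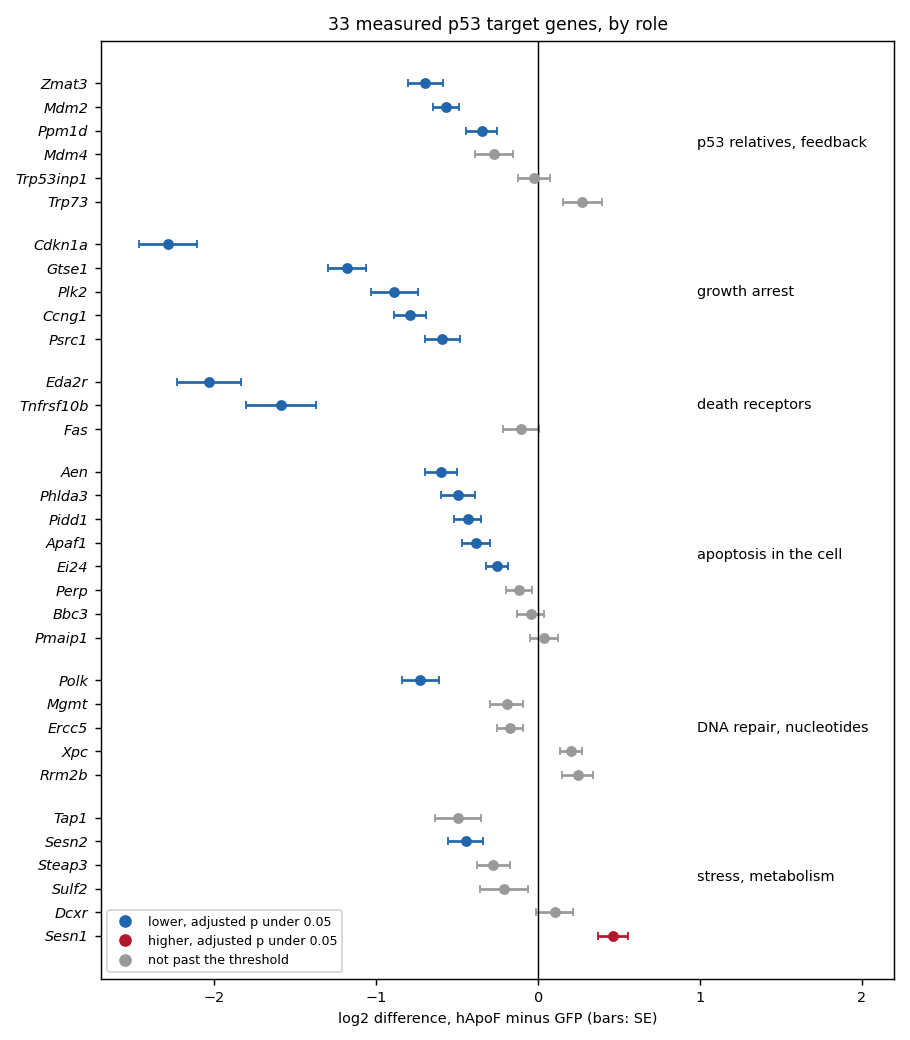
Log2 difference, hApoF minus GFP, for the 33 measured p53 target genes (points) with the SE of the limma fit (bars), grouped by role. The 17 genes that fell are blue, Sesn1, which rose, is red, and the 15 that did not pass are grey. All 5 genes of cell division and growth arrest (labelled growth arrest) are blue. The largest falls are those of Cdkn1a, Eda2r and Tnfrsf10b.

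Genes of cell division and growth arrest fell in all 5 cases. Gtse1 and Psrc1 among them have roles in mitosis. Cdkn1a, the p21 gene, had GFP values from 9.15 to 10.01 with a median of 9.27, and hApoF values from 6.35 to 7.46 with a median of 7.15. The groups were 1.69 apart at their nearest arrays. Cdkn1a fell by 2.29 (SE 0.18, adjusted p = 8.2e-06), a 4.88-fold lower level, and ranked 4 among all genes from the largest fall. Gtse1, which carries p53 out of the nucleus in dividing cells, had GFP values of 6.15, 6.37 and 6.85 (lowest, median and highest) and hApoF values of 5.06, 5.21 and 5.45. It fell by 1.18 (SE 0.12, adjusted p = 2.3e-05), with no overlap between groups.

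Plk2, a polo-like kinase of the centrosome cycle, ranged from 7.24 to 8.04 in GFP arrays (median 7.49) and from 6.37 to 6.99 in hApoF arrays (median 6.67). It fell by 0.89 (SE 0.14, adjusted p = 0.0013). Ccng1, cyclin G1, which recruits a phosphatase to Mdm2, ranged from 9.67 to 10.21 (median 10.01) and from 9.03 to 9.34 (median 9.12). It fell by 0.79 (SE 0.10, adjusted p = 1.2e-04), with hApoF arrays that spread less (SD 0.13, n = 6) than GFP arrays (SD 0.21, n = 6). Psrc1, a spindle microtubule protein, ranged from 5.51 to 6.14 (median 5.76) and from 4.89 to 5.37 (median 5.22), and fell by 0.59 (SE 0.11, adjusted p = 0.0039). In these 3 genes too, no hApoF array reached the lowest GFP array.

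**Figure D2:**
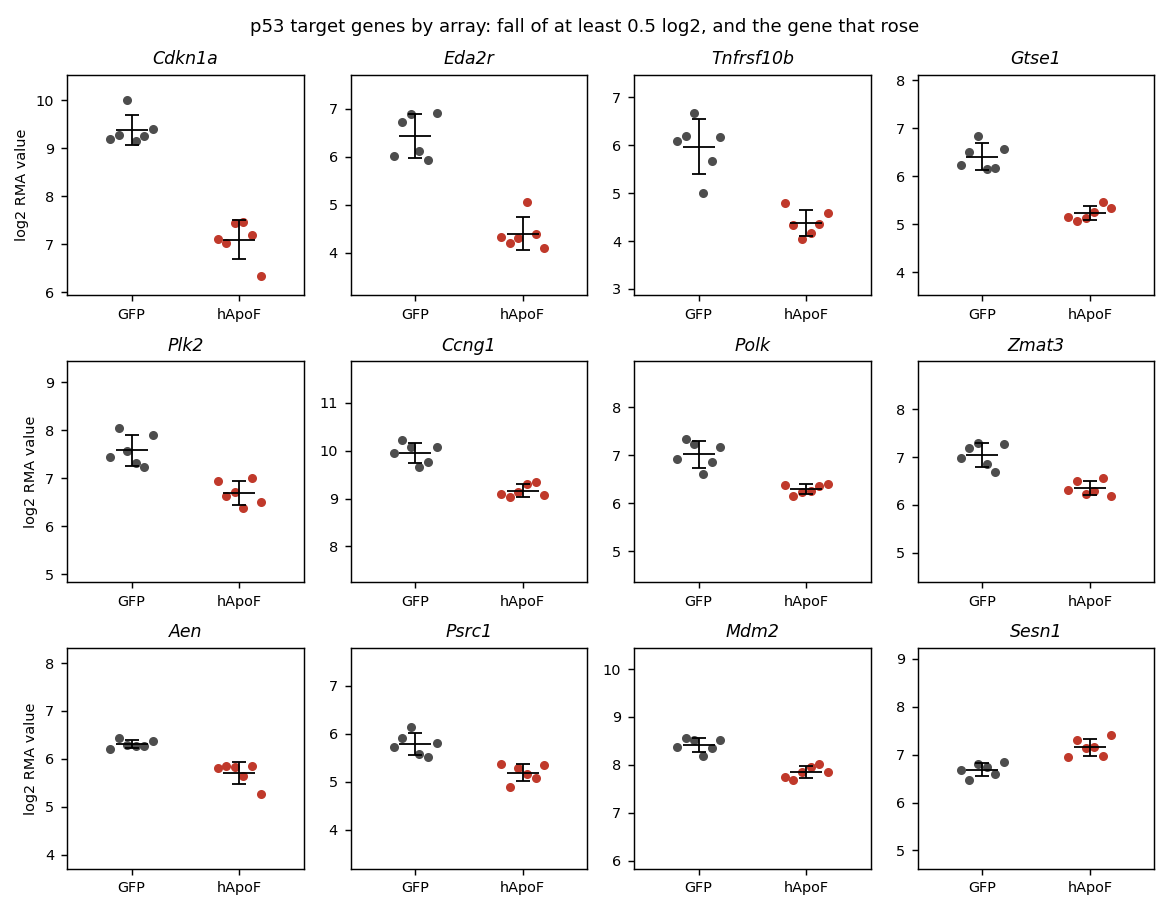
Log2 RMA value of each array for the 11 p53 target genes that fell by at least 0.5 and for Sesn1, which rose. Points are arrays (GFP grey, hApoF red, 6 each), horizontal marks are means and bars are SD. The vertical axes differ in position and all span the same range. In each of the 12 panels the groups do not overlap, with the widest gap in Cdkn1a.

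Among p53 relatives and feedback regulators 3 of 6 measured genes fell and 0 rose, and 5 had an unadjusted p under 0.05. Mdm2, the ubiquitin ligase of p53, had GFP values from 8.19 to 8.56 (median 8.44) and hApoF values from 7.68 to 8.01 (median 7.84). It fell by 0.57 (SE 0.08, adjusted p = 4.6e-04), and the groups did not overlap. Zmat3, a p53-induced RNA-binding zinc finger protein, ranged from 6.70 to 7.30 in GFP (median 7.08) and from 6.20 to 6.56 in hApoF (median 6.30), and fell by 0.70 (SE 0.11, adjusted p = 8.5e-04).

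Ppm1d, the phosphatase Wip1 that switches off p53 signalling, fell by 0.35 (SE 0.09, adjusted p = 0.038), but the groups overlapped by 1 array, with hApoF values of up to 7.34 and GFP values from 7.33. Omission of 1 array lost its call in 8 of 12 fits (GFP 1, 3, 5 or 6, hApoF 7, 9, 10 or 11), with an adjusted p of up to 0.089 without GFP 6, and on renewed quantile normalization (0.064). Mdm4, a partner of Mdm2 that also restrains p53, differed by -0.27 (SE 0.12, adjusted p = 0.197) and passed without GFP 4 and hApoF 12 together (-0.41, adjusted p = 0.017). Trp73, a relative of p53, had a difference of 0.27 (SE 0.12, adjusted p = 0.195). Trp53inp1, which binds p53 and acts in autophagy, had a difference of -0.03 (SE 0.10, adjusted p = 0.911) and turned to between 0.0010 and 0.020 without GFP 3, GFP 5, hApoF 7 or hApoF 8.

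Of the 3 members grouped here as death receptors 2 fell, among the largest falls of the list. Eda2r, a receptor for the A2 form of ectodysplasin, had GFP values from 5.95 to 6.92 (median 6.42) and hApoF values from 4.10 to 5.06 (median 4.32). It fell by 2.03 (SE 0.20, adjusted p = 1.9e-05), 4.10-fold. Tnfrsf10b, the receptor for the death ligand TRAIL, ranged from 5.01 to 6.68 in GFP arrays (median 6.13) and from 4.05 to 4.79 in hApoF arrays (median 4.34). It fell by 1.59 (SE 0.22, adjusted p = 2.8e-04), 3.01-fold, and its lowest GFP array, GFP 4, came within 0.23 of the highest hApoF array. The hApoF means of both (4.40 and 4.38) lay under the mean of the median gene (5.29), and the deposited values hold no detection calls. Fas, the receptor for Fas ligand, had overlapping ranges of 7.92 to 8.63 in GFP and 7.89 to 8.37 in hApoF, with a difference of -0.11 (SE 0.11, adjusted p = 0.634).

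Apoptosis genes that act inside the cell fell in 5 of 8 measured cases, and 0 rose. Aen, a p53-induced nuclease, ranged from 6.21 to 6.44 in GFP arrays (median 6.28) and from 5.26 to 5.85 in hApoF arrays (median 5.82), and fell by 0.60 (SE 0.10, adjusted p = 0.0013). Phlda3, which keeps the survival kinase Akt off the membrane, ranged from 6.00 to 6.53 (median 6.24) and from 5.41 to 5.96 (median 5.72), and fell by 0.49 (SE 0.10, adjusted p = 0.0092). Pidd1, the scaffold that activates caspase-2, fell by 0.44 (SE 0.08, adjusted p = 0.0049). In these 3 genes the groups did not overlap.

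Apaf1, the core of the apoptosome, fell by 0.38 (SE 0.08, adjusted p = 0.012), with 4 of 6 hApoF arrays below the lowest GFP array. Ei24, a membrane protein of the endoplasmic reticulum induced by p53, fell by 0.26 (SE 0.07, adjusted p = 0.037), with 5 of 6 below. Omission of 1 array lost the call of Ei24 in 8 of 12 fits (GFP 1, 2, 3 or 6, hApoF 7, 8, 9 or 12), with an adjusted p of up to 0.088 without GFP 2. Omitting both GFP 4 and hApoF 12 lost it too (0.062). Bbc3, Pmaip1 and Perp did not pass. Bbc3 and Pmaip1, which encode the BH3-only killers Puma and Noxa, had differences of -0.05 (SE 0.08, adjusted p = 0.796) and 0.04 (SE 0.09, adjusted p = 0.852), with ranges of 5.06 to 5.34 against 4.96 to 5.40 and 4.74 to 5.17 against 4.79 to 5.12. Pmaip1 turned to -0.015 without GFP 2. Perp, a membrane protein of desmosomes and p53-dependent death, had a difference of -0.12 (SE 0.08, adjusted p = 0.440).

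In DNA repair and nucleotide supply 1 of 5 genes fell and 0 rose. Polk, a polymerase that copies past damaged bases, had GFP values from 6.60 to 7.34 (median 7.05) and hApoF values from 6.14 to 6.40 (median 6.30), and fell by 0.73 (SE 0.11, adjusted p = 8.1e-04). The hApoF arrays lay close together (SD 0.10, n = 6, against 0.28 in GFP, n = 6). Xpc, the damage sensor of nucleotide excision repair, and Rrm2b, the p53-induced ribonucleotide reductase subunit, had differences above 0, of 0.20 (SE 0.07, adjusted p = 0.084) and 0.24 (SE 0.10, adjusted p = 0.154). Xpc passed on renewed quantile normalization (0.28, adjusted p = 0.012) and when only genes at or above the median gene were tested (adjusted p = 0.031). Ercc5, a nuclease of the same repair pathway, had a difference of -0.17 (SE 0.08, adjusted p = 0.231) and Mgmt, which removes alkyl groups from guanine, of -0.19 (SE 0.10, adjusted p = 0.296).

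The stress, secretion and metabolism members held the riser. Sesn1, a sestrin that restrains growth signalling through mTORC1, had GFP values from 6.47 to 6.84 (median 6.71) and hApoF values from 6.95 to 7.40 (median 7.14). It rose by 0.46 (SE 0.09, adjusted p = 0.0060), and all 6 hApoF arrays lay above the highest GFP array. Its paralog Sesn2, induced by ATF4 as well as by p53, went the other way, from 5.91 to 6.49 (median 6.19) in GFP to 5.56 to 5.98 (median 5.66) in hApoF. Sesn2 fell by 0.45 (SE 0.11, adjusted p = 0.023), with 4 of 6 hApoF arrays below the lowest GFP array. Its call was lost without GFP 2, GFP 3 or GFP 6 (adjusted p = 0.052, 0.060 and 0.057).

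Tap1, a peptide transporter of antigen presentation induced by interferon as well as by p53, had GFP values from 8.17 to 8.99 (median 8.33) and hApoF values from 7.50 to 8.15 (median 8.03). The groups did not overlap, yet the difference of -0.49 (SE 0.14) had an adjusted p of 0.051. It passed without GFP 4 (0.035), with arrays centred (0.0497), with trend and robust settings (0.042), with array weights (0.044) and among brighter genes (0.026). Steap3, an iron reductase, had a difference of -0.28 (SE 0.10, adjusted p = 0.135), Sulf2, which trims sulfate from heparan sulfate, of -0.21 (SE 0.15, adjusted p = 0.439) and Dcxr, a xylulose reductase, of 0.10 (SE 0.11, adjusted p = 0.652).

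Lists of genes that share other regulators with these members were read beside them. Of 18 ATF4 target genes 0 passed limma, with 5 at an unadjusted p under 0.05 and a median difference of 0.03. Of 23 interferon-stimulated genes 0 passed, with 7 at an unadjusted p under 0.05 and a median of -0.05. Their mean level was 7.14 to 7.60 in GFP arrays and 6.99 to 7.42 in hApoF arrays. Of 18 FoxO-regulated genes, a class of insulin-repressed genes, 4 rose and 0 fell, among them Pck1, the gluconeogenic enzyme (0.44, SE 0.08, adjusted p = 0.0020). The count of 4 rested on single arrays: it was 1 on omission of GFP 2, 2 on that of GFP 1, GFP 6 or hApoF 9, and 7 on that of GFP 4. Omission of GFP 4 or hApoF 9 gave 2 and 3 interferon-stimulated genes that fell, and among ATF4 targets 1 gene passed on omission of hApoF 8, hApoF 10 or hApoF 12.

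Other genes of the p53 pathway were mostly not past the test. Among 49 on the array 5 fell (10.2%, against 4.8% of all genes) and 1 rose (2.04%, against 2.11%). The other 43 did not pass, and the median difference of the 49 was 0.02. The fallers were Chek1 (-1.24, SE 0.09, adjusted p = 6.1e-06) and Chek2 (-0.90, SE 0.11, adjusted p = 8.1e-05), the checkpoint kinases upstream of p53, Ckap2, a spindle protein (-2.47, SE 0.23), Ephx1, an epoxide hydrolase (-0.70, SE 0.12), and Pml, the scaffold of nuclear bodies (-0.42, SE 0.09, adjusted p = 0.0085). The riser was Btg2, an antiproliferative p53 target that is also an immediate-early gene (1.12, SE 0.25, adjusted p = 0.014). Pml and Btg2 were named after their values were seen. Omitting GFP 4, GFP 5, hApoF 7 or hApoF 11 gave 2 risers, and 8 genes were lower when only genes at or above the median gene were tested. More genes of any kind passed in that fit (2107, against 1533 in the fit on all genes).

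The genes that p53 lowers through p21 and DREAM were lower, as was Cdkn1a. Their link through p21 and DREAM alone has them move in opposite directions to Cdkn1a. Why both were lower was not tested. Among 28 of these genes on the array 27 fell and 0 rose, where 4.8% of all genes fell. Their median difference was -1.66, against 0.03 over all genes. In all 27 every hApoF array lay below every GFP array, as in 3.49% of all genes. Examples are Ect2, a regulator of cytokinesis (-2.40, SE 0.20, adjusted p = 8.5e-06), Prc1, a spindle midzone protein (-2.24, SE 0.18, adjusted p = 8.3e-06), Cdc20, which switches on the ligase of anaphase (-1.68, SE 0.14), and Aurka, a spindle pole kinase (-1.66, SE 0.14). Mybl2, the gene of this list that did not pass and was named after its values were seen, had a difference of -0.03 (SE 0.08). Its means of 5.07 in GFP and 5.04 in hApoF lay under the mean of the median gene (5.29), and the values hold no detection calls. The mean level of the 28 genes was 6.82 to 7.42 in GFP arrays and 5.12 to 6.05 in hApoF arrays. The part of cell cycle transcripts in the lower levels of the p53 targets was not tested.

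**Figure D3:**
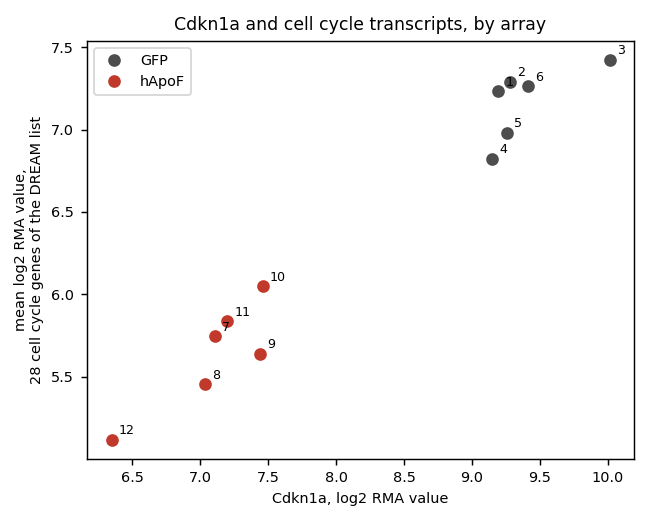
Cdkn1a level (horizontal, log2 RMA value) against the mean log2 level of 28 cell cycle genes repressed through DREAM (vertical), 1 point per array, labelled by replicate number. GFP arrays (grey) form a cluster at 9.15 to 10.01 and hApoF arrays (red) at 6.35 to 7.46 for Cdkn1a. Array hApoF 12 is lowest and GFP 3 highest on both axes.

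Because the groups form separate clusters, relations were computed within each group of 6 arrays. Cdkn1a was set against Eda2r, Mdm2, Ccng1, Phlda3 and the mean of the 28 cell cycle genes, 10 relations in all. None passed after Benjamini-Hochberg adjustment over the 10. In hApoF arrays Cdkn1a and the cell cycle mean had r = 0.87 (exact permutation p = 0.028, adjusted 0.194) and rho = 0.83 (exact p = 0.058, adjusted 0.147), and r = 0.24 without hApoF 10 and hApoF 12. In GFP arrays they had r = 0.68 (exact permutation p = 0.125, adjusted 0.313) and rho = 0.89 (exact p = 0.033, adjusted 0.147), and r = 0.58 without GFP 3 and GFP 6. Cdkn1a and Phlda3 in GFP arrays had r = 0.84 (exact permutation p = 0.042, adjusted 0.194) and rho = 0.77 (exact p = 0.103, adjusted 0.147), and r = -0.07 without GFP 3 and GFP 6. The first and the last of these relations thus rest on the arrays left out. The other 7 had r between 0.24 and 0.67 and an adjusted p of r of at least 0.194.

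Arrays of a group did not take the extremes evenly. Among the 17 members that fell, the highest GFP value was in GFP 3 for 8, in GFP 2 for 6 and in GFP 6 for 3, and the lowest in GFP 4 for 9, in GFP 5 for 6, and in GFP 1 and GFP 2 for 1 each. Over all genes the highest GFP value was in GFP 3 for 19.9%, in GFP 2 for 12.3% and in GFP 6 for 18.2%, and the lowest in GFP 4 for 22.3% and in GFP 5 for 14.1%. Among hApoF arrays the lowest value was in hApoF 8 for 7 and in hApoF 12 for 5 of the 17, against 16.4% and 23.6% of all genes. GFP 4 also had the lowest mean over the 33 members in its group (7.07). In the other group hApoF 12 (6.705) and hApoF 8 (6.708) were lowest and nearly equal, below a highest hApoF mean of 6.85.

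**Figure D4:**
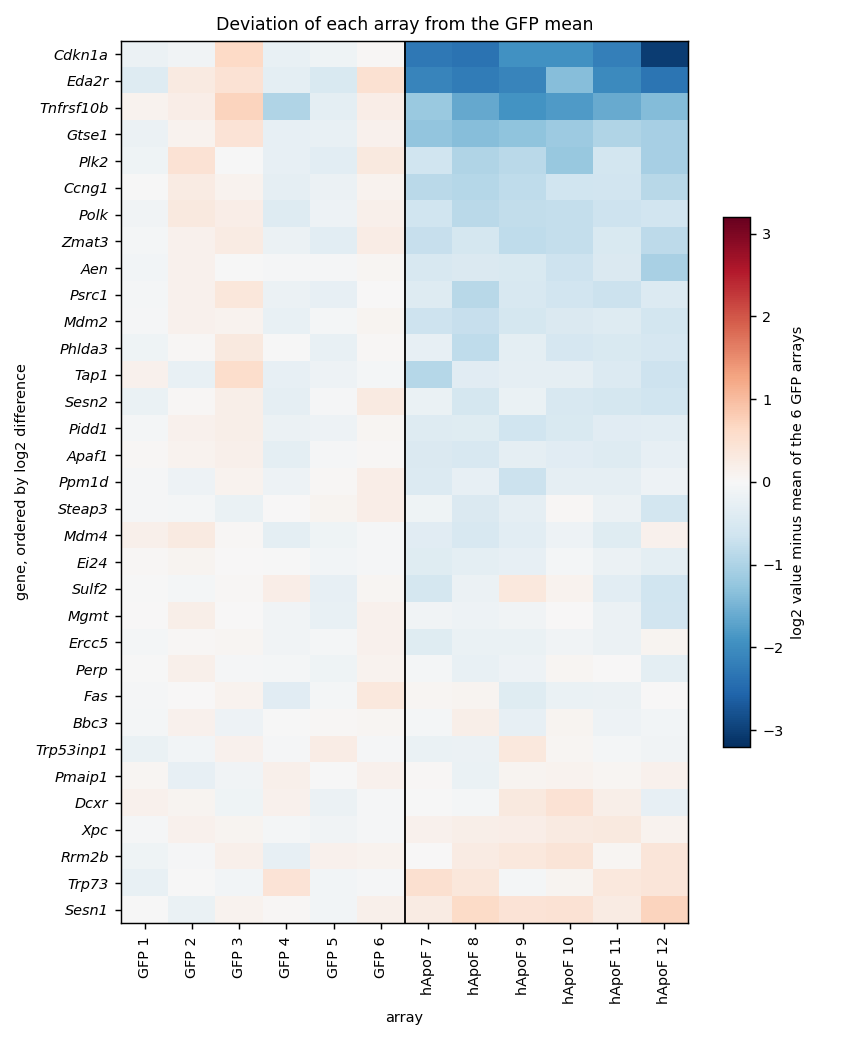
Log2 value of each array minus the mean of the 6 GFP arrays, for the 33 measured p53 target genes ordered by their difference (largest fall at the top). Blue is below and red above the GFP mean. The upper rows are blue in all 6 hApoF arrays, Sesn1 in the lowest row is red in all 6, and Cdkn1a is darkest in hApoF 12.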

How the data were processed

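The table deposited by the authors holds log2 values for 35145 probe sets and 12 arrays (0 missing), made with oligo and RMA per the submitters' processing notes. The sources used here name no version, annotation release or build. Probe sets with 1 gene symbol (23521) were kept, those with several (1814) or none (9810) left out, and each gene took its brightest probe set. RMA shares a scale between arrays, so values hold no count or depth. Groups were fitted with limma 3.58.1 in R 4.3.3 (lmFit, eBayes, no covariates), Benjamini-Hochberg over 22180 genes, threshold 0.05. In simulated hApoF against GFP values for 22180 genes, 70% of 50 genes changed by 0.5 and 100% of 50 changed by 1 were recovered. The same run changed 50 genes by 1.5 and 50 by 2, and had 10 false calls in all. Its noise was independent between genes and equal between arrays, so recovery in the real arrays may be lower. Exact tests used all 924 assignments of arrays (smallest p 0.0022, reached by 15 members) or 720 pairings. Named were all members and, from each other list, at most 4 genes with the lowest p; Pml, Btg2 and Mybl2 were added after their values were seen. Members and lists were chosen with earlier results of these data known. Alternatives: leaving out arrays, centring, renewed quantile normalization, trend and robust settings, array weights, a filter on dim genes and mean of probe sets. Tables were made with Python 3.11.15.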

Additional observations from a re-analysis of the deposited data

Results flagged for a closer look

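In 6 of 66 groups (33 genes, each in 6 GFP and 6 hApoF arrays) a single array stood apart by Dixon's criterion, a gap to the nearest array above the 95% critical share of the group's range for 6 samples. Chance gives about 1 in 20 groups. Cdkn1a was highest in GFP 3 at 10.01, where the next array had 9.41. Eda2r was highest among hApoF arrays in hApoF 10 at 5.06, where the next had 4.40. Trp73 was highest among GFP arrays in GFP 4 at 5.18, where the next had 4.74. Aen was lowest in hApoF 12 at 5.26 (next 5.65), Mgmt in hApoF 12 at 6.93 (next 7.33) and Pmaip1 in hApoF 8 at 4.79 (next 5.04). The calls of Cdkn1a, Eda2r and Aen held without each of these arrays.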

How the results depend on the processing

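Of the 18 members that passed, 15 kept their call under every alternative in which they were tested (19, or 18 for Tnfrsf10b, which the filter on dim genes removed), and Ppm1d, Ei24 and Sesn2 lost it in some. Of the 15 others, Xpc, Trp73, Mdm4 and Tap1 passed in some. The number of p53 targets lower was 14 to 18 under all alternatives. That of higher ones was 1 to 2 without 1 array, and 2 after renewed quantile normalization or among the 29 members at or above the median gene. In the other pathway genes the higher count was 1 to 2 without 1 array, 2 with trend and robust settings or array weights, and 3 in the filtered fit, where the lower count was 8. Over all genes 1533 passed, and 1015 to 1988 without 1 array (1019 without GFP 2, 1015 without GFP 3, 1021 without GFP 6). In the filtered fit 2107 genes passed. Trp53inp1 lay between -0.099 and 0.020 without 1 array and at 0.0077 with array weights, and Pmaip1 between -0.015 and 0.085 without 1 array. The causes were not tested. The median difference of all genes was 0.02 after centring. No paired analysis was possible because the groups share no replicate numbers. The values hold no background calls, and 4 members (Bbc3, Pmaip1, Tnfrsf10b and Trp73) had a mean below the median gene.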
